A study of Mus musculus with 12 samples.

Results

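Of the 51691 catalogue probes on a 1-colour Agilent mouse array, 28 were low at 2 weeks of a colitis and colon cancer model and were back near or above their untreated level at 10 weeks. The array held 145548 different probes of 60 bases, of which 93857 belonged to a custom design and are not members. The 28 members were chosen by their values in the authors' deposited log2 table. In each, the 2-week mean lay at least 0.8 below the 0-, 1- and 10-week means, the 10-week mean was no more than 0.8 below the 0-week mean, every 2-week array lay below the other 9 arrays, and the 0-week mean was at least 5. These differences are therefore given as a description, without a test. The files pair no probe with a gene, and none of the 28 matched the RefSeq promoter windows or miRNA hairpins of GRCm38.p6, so members carry probe IDs and their positions in the genome are not given.

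Colorectal tissue came from male mice of the C57BL/6 strain, in 4 groups of 3 arrays. The 0-week mice were untreated. The 1-week mice had received azoxymethane (AOM) at 10 mg/kg and no dextran sulfate sodium (DSS), although their label says colitis. The 2-week mice had received AOM and then drinking water with 2% DSS for 7 days. The 10-week mice, labelled tumour, had received AOM and DSS, under a protocol of 3 DSS courses with 14 days of plain water after each. The labels name no transgene or deletion. The labels do not say whether the 3 arrays of a group were separate animals, and a p-value here reflects array-to-array spread, some of it possibly technical.

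AOM is a DNA-alkylating carcinogen whose effects concentrate in the colon of rodents. DSS in the drinking water injures the colonic epithelium, which is followed by infiltration of immune cells, repair and, after AOM, tumours. In bulk tissue, fewer cells of a type and less RNA per cell cannot be told apart. Without gene names the absence or presence of cell type markers could not be read, so the labelled tissue was not checked against them.

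The sequences below belong to the members on which the description turns: several with large falls, a pair of related sequence, and the 4 whose mean was lower at 10 weeks than at 1 week. All are 5′ to 3′ as the array files give them, and capitals mark a run shared with another probe of the array. The sense strand was read in 3 frames.
A_55_P2723934: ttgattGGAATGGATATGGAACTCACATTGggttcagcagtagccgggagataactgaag
A_51_P136781: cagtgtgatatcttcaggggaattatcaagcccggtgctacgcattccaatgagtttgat
A_51_P314669: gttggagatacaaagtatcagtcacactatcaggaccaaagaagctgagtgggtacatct
A_52_P669922: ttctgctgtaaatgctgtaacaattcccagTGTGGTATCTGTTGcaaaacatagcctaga
A_52_P21486: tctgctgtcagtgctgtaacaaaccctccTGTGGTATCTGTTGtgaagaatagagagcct
A_55_P2025586: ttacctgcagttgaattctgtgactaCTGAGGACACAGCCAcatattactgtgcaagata
A_51_P390937: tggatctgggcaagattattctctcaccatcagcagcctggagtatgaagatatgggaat
A_66_P106497: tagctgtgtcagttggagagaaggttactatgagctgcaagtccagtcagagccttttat
A_55_P2138627: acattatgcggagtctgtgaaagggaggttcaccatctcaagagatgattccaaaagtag
Run shared by A_55_P2609194 and A_55_P2609189: ATTTGTCCCCAAAGGTGAACAG

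A_52_P669922 and A_52_P21486 matched at 42 of 59 aligned bases, and their capitals are a common run of 14 bases. Each held at least 7 cysteine codons (TGT or TGC) in 1 frame. That was so for 2 of 28 members and for 0.154% of the 33166 catalogue probes tested, and their probe IDs differ, so they count as separate members of related sequence. A_55_P2609194 and A_55_P2609189 overlap by 22 bases, the end of the first being the start of the second, so their values share target sequence. The capitals of A_55_P2723934 mark 24 bases held also by A_55_P2035117, and those of A_55_P2025586 mark 15 bases held also by A_55_P1952212; neither of those probes is a member. A frame without a stop codon was found in 26 of 28 members (92.9%) and in 82.9% of the catalogue probes tested. The members' GC content ran from 35.0% to 51.7% with a median of 41.7%, against a median of 45.0% over the catalogue probes tested.

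Values below are log2 processed signals, scaled so that 0 is each array's 75th percentile over probes well above background on all 12 arrays. They are given in the order of replicates 1, 2 and 3, and levels of different probes are not compared, because probes differ in how they hybridise. All 28 members were well above background on each of the 9 arrays from 0, 1 and 10 weeks, and all entered the tests. At 2 weeks, 17 members were well above background on 3 of 3 arrays, 5 on 1 or 2, and 6 on 0. Between 33.3% and 44.4% of probes were well above background per array, least on 2-week replicate 3 and most on 10-week replicate 1. The 0-week arrays lay on slides 1 and 2 and the 1-week arrays on slides 3 and 4. All 3 arrays at 2 weeks shared slide 5, and all 3 at 10 weeks shared slide 6 and were the only arrays of scan day 2. No slide held arrays of more than 1 group, so slide and group cannot be told apart in any comparison.

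**Figure D1:**
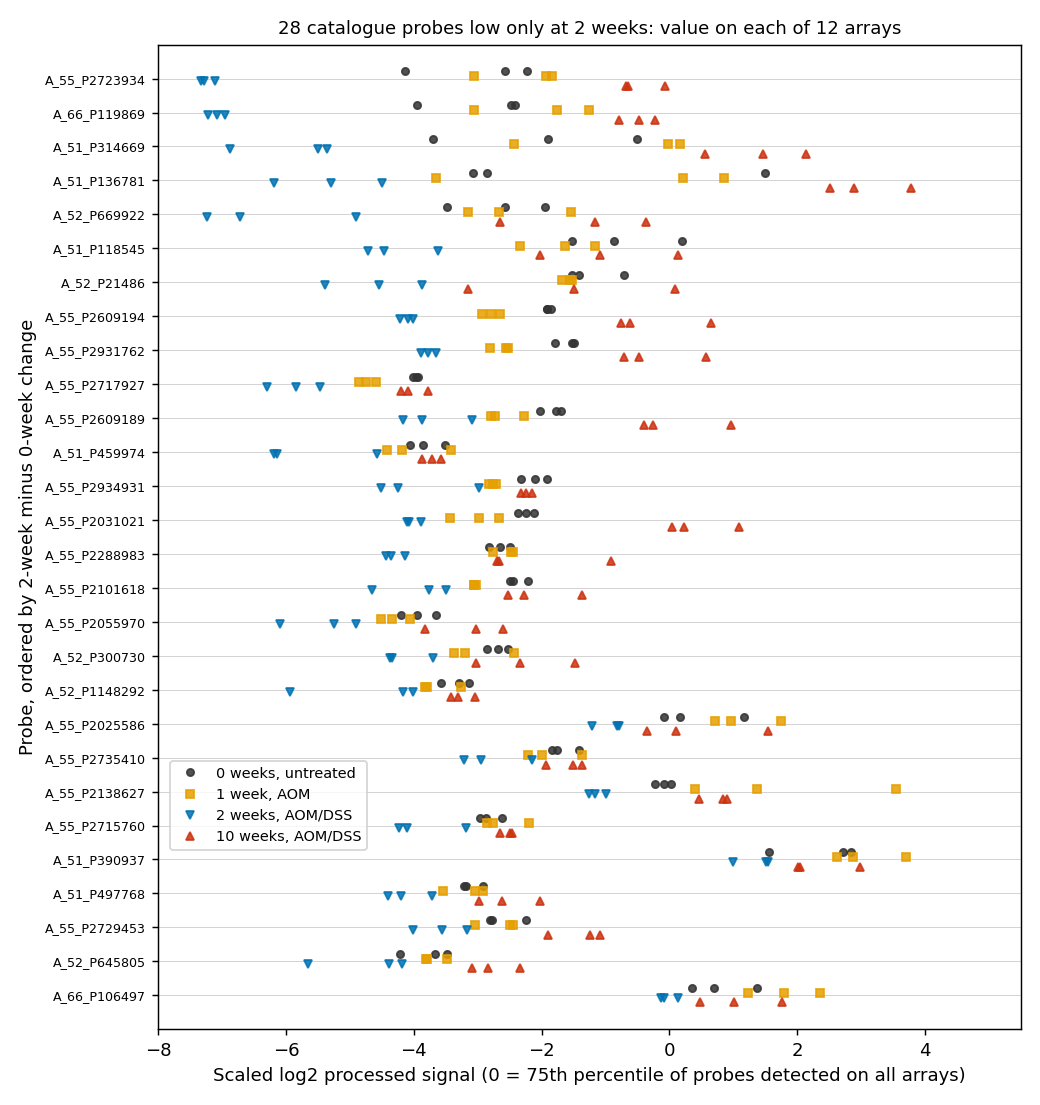
Scaled log2 signal of the 28 members (rows) on 12 arrays, coloured by group, with rows ordered by the 2-week minus 0-week change. The 2-week arrays lie leftmost in 26 rows, and the change ran from -4.26 for A_55_P2723934 to -0.84 for A_66_P106497, by measured means. In 6 rows, A_55_P2723934 among them, no 2-week array was well above background. The 2-week points there are measured signals, not the bounds (for A_55_P2723934, a mean of -7.24 against an upper bound of -5.28). The order of these rows is therefore not a ranking of the falls.

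The 2-week mean was below the 0-week mean by a median of 1.71 log2 over the 28 members, and the measured changes ran from -4.26 to -0.84. For 6 members no 2-week array was well above background, and these changes use measured means below the bound on their 2-week level. Those changes can overstate the fall, so the largest falls are not ranked. Over all catalogue probes tested the median change was 0.00. Against 1 week the members' changes ran from -5.15 to -0.92 with a median of -1.27. At 10 weeks they stood above 2 weeks by 0.99 to 8.40, with a median of 2.08. At least 4-fold changes were seen in 9 members at 2 against 0 weeks, 9 at 2 against 1 week and 14 at 10 against 2 weeks, by the measured means. In the deposited table the fall, taken as the mean of the 0-, 1- and 10-week means minus the 2-week mean, ran from 0.91 (A_55_P2735410) to 5.60 (A_55_P2723934, with the same limit).

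Just inside the rule, the smallest margins were 0.80 for A_55_P2101618 and 0.80 for A_55_P2729453. Just outside, A_55_P2060198 had a margin of 0.79 and A_55_P2726316 one of 0.77, with every other condition met. A 10-week mean still at least 0.8 below 0 weeks was the more frequent pattern. Of 261 catalogue probes that were low at 2 weeks against both 0 and 1 week, 202 had it. Those 202 were not compared between 2 and 10 weeks, so some may have risen in part. On the custom design 39 probes met the members' conditions. With the scanner signal scaled as above, 26 of the 28 kept the conditions on differences and array order. The exceptions were A_52_P645805, whose highest 2-week array (-4.18) lay above its lowest 0-week array (-4.21), and A_55_P2735410, whose 2-week replicate 2 (-2.15) lay above its 1-week replicate 2 (-2.21).

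A_55_P2723934 and A_66_P119869 had near-equal profiles and no 2-week array well above background. A_55_P2723934 read -4.14, -2.22 and -2.57 at 0 weeks, then -1.93, -3.06 and -1.83 at 1 week, -7.33, -7.28 and -7.11 after 2 weeks and -0.68, -0.06 and -0.65 after 10 weeks. A_66_P119869 read -3.95, -2.42 and -2.48 at 0 weeks, then -1.76, -3.06 and -1.26 at 1 week, -7.22, -7.08 and -6.96 after 2 weeks and -0.47, -0.22 and -0.78 after 10 weeks. In both, the 10-week arrays lay above all other arrays, and the 2-week arrays lay below all others. Where no array of a group was well above background its level is only a bound, taken per array as the higher of the lowest signal among probes well above background and the probe's own. On that basis A_55_P2723934 at 0 weeks was at least 4.95-fold, at 1 week at least 8.04-fold and at 10 weeks at least 28.2-fold above 2 weeks. For A_66_P119869 the bounds were at least 5.03-fold, 9.54-fold and 27.7-fold. These bounds, and those given below for other probes, hold for the processed signal only. The SD over the 12 arrays of the difference between these 2 probes was 0.21, against a median of 1.16 over the 378 pairs of members.

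A further pair spread widely between the arrays of 1 group. A_51_P136781 read -3.07, 1.50 and -2.85 at 0 weeks, then 0.85, -3.65 and 0.22 at 1 week, -6.19, -4.50 and -5.30 after 2 weeks and 2.90, 3.79 and 2.52 after 10 weeks. A_51_P314669 read -3.70, -0.50 and -1.90 at 0 weeks, then -0.02, -2.43 and 0.17 at 1 week, -6.87, -5.36 and -5.51 after 2 weeks and 1.47, 2.15 and 0.56 after 10 weeks. In both, 0-week replicate 2 was the highest 0-week array and 1-week replicate 2 the lowest 1-week array, so the 0- and 1-week groups overlapped, while the 10-week arrays lay above all others. The 0-week SD of A_51_P136781, 2.58, was the highest of the members. Its 2-week minus 0-week change, -3.86, was -2.37 without 0-week replicate 2. A_51_P314669 was well above background on 0 of 3 arrays at 2 weeks, and its level at 10 weeks was at least 102-fold higher. At 0 weeks it was at least 9.48-fold and at 1 week at least 22.9-fold above 2 weeks. A_51_P136781 was well above background on 1 of 3 arrays at 2 weeks.

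The cysteine-rich pair did not move as 1 profile on single arrays. A_52_P669922 read -3.48, -1.94 and -2.57 at 0 weeks, then -1.54, -3.15 and -2.67 at 1 week, -7.24, -6.72 and -4.90 after 2 weeks and -1.15, -0.36 and -2.65 after 10 weeks. A_52_P21486 read -1.52, -0.71 and -1.41 at 0 weeks, then -1.56, -1.53 and -1.68 at 1 week, -4.54, -3.88 and -5.39 after 2 weeks and -3.16, 0.09 and -1.48 after 10 weeks. A_52_P669922 was lowest on replicate 1 of the 2-week arrays and A_52_P21486 on replicate 3. There A_52_P21486 was well above background on 2 of 3 arrays and A_52_P669922 on none, so their 2-week order rests on dim signals. At 10 weeks both were well above background on all 3 arrays, and replicate 2 was the highest array of both. The lowest 10-week array was replicate 3 for A_52_P669922 (-2.65) and replicate 1 for A_52_P21486 (-3.16). The 10-week arrays of A_52_P21486 spanned -3.16 to 0.09, and included its 0-week arrays between them. A_52_P669922 was well above background on none of the 2-week arrays, and stood at least 6.10-fold higher at 0 weeks, 7.06-fold at 1 week and 14.8-fold at 10 weeks.

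A_51_P118545 was well above background on all 12 arrays, and its 2-week minus 0-week change was -3.54 ± 0.57 log2 (SE). A_51_P118545 read 0.20, -1.53 and -0.86 at 0 weeks, then -1.16, -1.63 and -2.33 at 1 week, -4.46, -3.63 and -4.72 after 2 weeks and 0.13, -1.09 and -2.03 after 10 weeks. Its 0-, 1- and 10-week arrays overlapped, and the 2-week arrays lay apart. This probe was spotted 9 to 10 times on each array, with an SD between spots of 0.08 to 0.44 (median 0.14). A_51_P459974, also spotted 9 to 10 times, had an SD between spots of 0.13 to 0.72 (median 0.20). A_51_P459974 read -3.51, -4.06 and -3.85 at 0 weeks, then -4.18, -4.42 and -3.42 at 1 week, -6.14, -4.57 and -6.18 after 2 weeks and -3.71, -3.88 and -3.58 after 10 weeks. Its 0-, 1- and 10-week arrays overlapped as well.

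**Figure D2:**
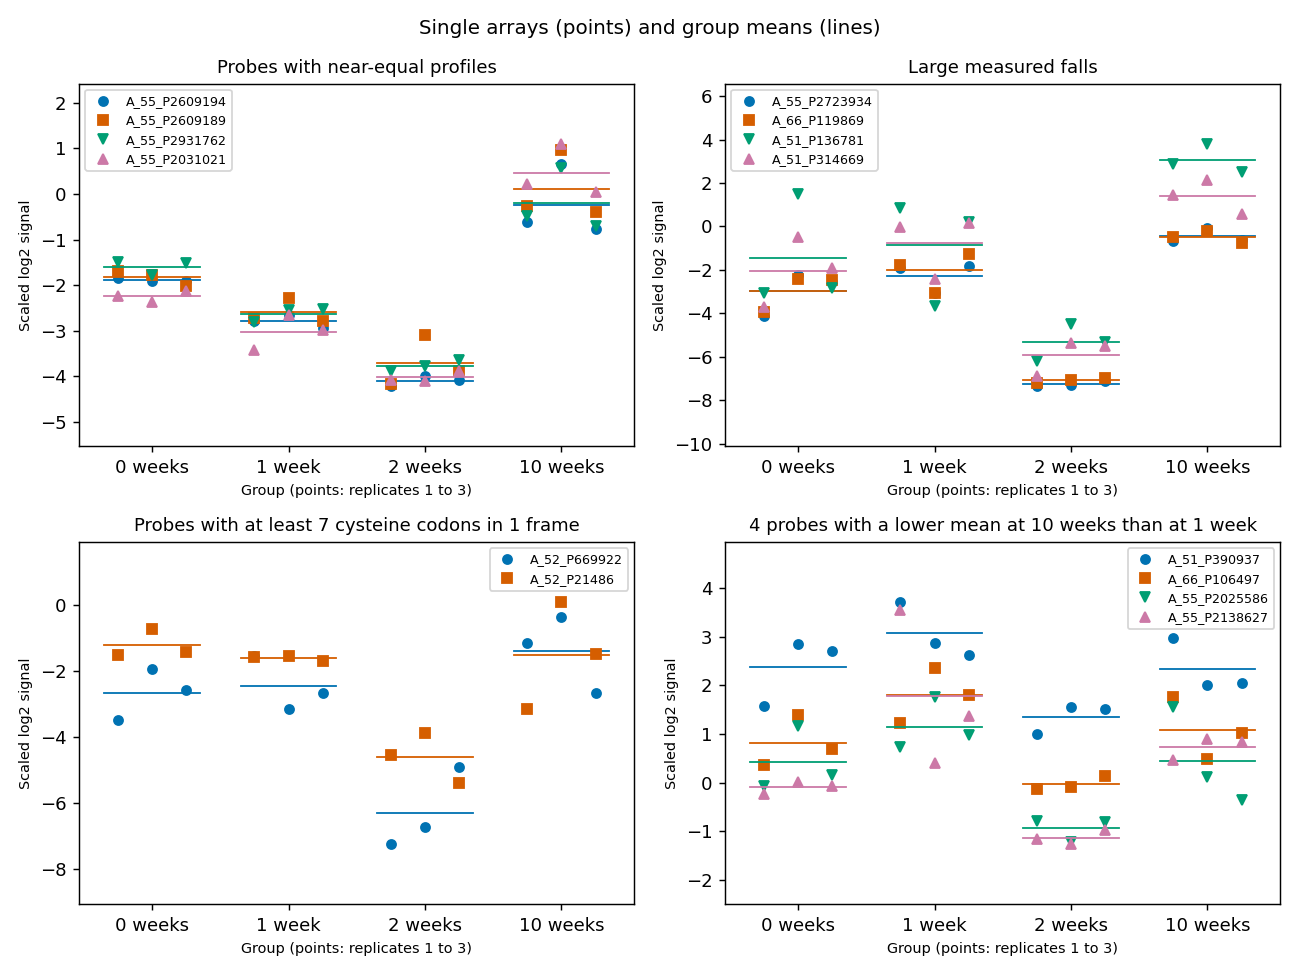
Scaled log2 signal (points, replicates 1 to 3 from left to right) and group means (lines) of 14 members in 4 sets. The first set has its highest values at 10 weeks, the second spreads widely at 0 and 1 week, and the fourth, with lower means at 10 weeks than at 1 week, has its highest means at 1 week.

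No condition of the choice compared 1 week with 0 weeks, the step after AOM and before DSS. Each of these groups was bounded, though, since both had to exceed 2 weeks and the 0-week mean had to reach 5, so the counts for this step are also a description beside the background. In the limma fit over 62388 probes, with Benjamini-Hochberg adjustment, 0 of 28 members passed an adjusted p of 0.05 in either direction. Over all probes tested 0.705% passed as higher and 0.271% as lower, and over the catalogue probes 0.862% and 0.247%. At an unadjusted p below 0.05 there were 6 members, 2 higher and 4 lower, and the lowest adjusted p from limma was 0.102, for A_55_P2717927. The share of all probes below that unadjusted p was not computed. Changes ran from -1.03 (A_55_P2931762) to 1.87 (A_55_P2138627) with a median of -0.13. In 8 members every 1-week array lay below every 0-week array, where 11.1% of catalogue probes did so, and in 1 member every 1-week array lay above, where 13.8% did. Without replicate 2 of the 10-week group, which enters only through the shared spread, 2 members and 0.166% of the catalogue probes passed as lower. The 2 members were A_55_P2609194, at -0.90 ± 0.14 log2 (SE; limma adjusted p = 0.0334), and A_55_P2931762, at -1.03 ± 0.16 (limma adjusted p = 0.0317).

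A_55_P2609194 and A_55_P2931762 belong to a set of 4 probes that were lower at 1 than at 0 weeks on every array and high at 10 weeks. A_55_P2609194 read -1.85, -1.91 and -1.92 at 0 weeks, then -2.79, -2.66 and -2.93 at 1 week, -4.21, -4.01 and -4.09 after 2 weeks and -0.61, 0.66 and -0.76 after 10 weeks. A_55_P2609189 read -1.69, -1.78 and -2.02 at 0 weeks, then -2.72, -2.28 and -2.79 at 1 week, -4.17, -3.09 and -3.88 after 2 weeks and -0.26, 0.97 and -0.40 after 10 weeks. On both probes the 4 groups stood apart from one another on single arrays, in the order 10, 0, 1 and 2 weeks from high to low. A_55_P2931762 read -1.49, -1.78 and -1.52 at 0 weeks, then -2.80, -2.56 and -2.53 at 1 week, -3.89, -3.78 and -3.65 after 2 weeks and -0.48, 0.57 and -0.71 after 10 weeks. A_55_P2031021 read -2.25, -2.37 and -2.12 at 0 weeks, then -3.44, -2.66 and -2.98 at 1 week, -4.08, -4.10 and -3.88 after 2 weeks and 0.23, 1.10 and 0.04 after 10 weeks. The same order without overlap held here, and 10-week replicate 2 was the highest array of all 4 probes. The SD over 12 arrays of the difference between A_55_P2609194 and A_55_P2931762 was 0.18, the smallest of the 378 pairs of members; that between A_55_P2609194 and A_55_P2609189, which overlap in sequence, was 0.26. These pairs were ranked on the values that chose the members and serve as a description.

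Against 1 week, 10-week tissue had 11 of 28 members higher and 0 lower at a limma adjusted p below 0.05. At the same adjusted threshold 17.5% of all probes tested passed as higher and 8.25% as lower, and over catalogue probes 14.6% and 13.2%. At an unadjusted limma p below 0.05 there were 14 members higher and 0 lower. The share of all probes below that unadjusted p was not computed, so this count has no background beside it. No member condition compared these 2 groups, but each was bounded, since the 10-week mean could not lie far below 0 weeks and the 1-week mean had to exceed 2 weeks. The count of lower calls is therefore partly set by the choice, and the count of higher calls is a description beside the background. Every 10-week array lay above every 1-week array in 14 members, where 25.6% of catalogue probes did so, and below in 0, where 21.6% did. Scaling by the percentile over all probes turned the catalogue background to 5.80% higher and 27.2% lower, and quantile normalization to 8.81% and 17.6%. The members then gave 6 and 8 higher calls. The median change of the catalogue probes at 10 against 1 week was 0.08 in the fit and -0.28 with the percentile over all probes.

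In the set of 4, A_55_P2031021 rose at 10 weeks against 1 week by 3.48 ± 0.27 log2 (SE, n = 3 a group; limma adjusted p = 2.42e-05), or 11.2-fold. A_55_P2609189 rose by 2.70 ± 0.36 (limma adjusted p = 0.000873), A_55_P2609194 by 2.56 ± 0.30 (0.000403) and A_55_P2931762 by 2.42 ± 0.28 (0.000354). A_55_P2729453 read -2.80, -2.25 and -2.78 at 0 weeks, then -3.04, -2.50 and -2.45 at 1 week, -3.56, -3.16 and -4.01 after 2 weeks and -1.09, -1.25 and -1.89 after 10 weeks. On A_55_P2729453 the 0- and 1-week arrays overlapped and the 10-week arrays lay above both. It rose by 1.25 ± 0.29 log2 against 1 week (limma adjusted p = 0.011). These 5 probes passed in the fit and under all 21 alternatives.

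The other 6 calls did not hold under every alternative. A_55_P2723934 rose by 1.81 ± 0.46 log2 (limma adjusted p = 0.0172) and passed under 19 of 21 alternatives. A_66_P119869, its near-equal partner, rose by 1.54 ± 0.47 (limma adjusted p = 0.035; 13 of 21), and stood 1.02 higher without 1-week replicate 2. A_51_P136781 rose by 3.93 ± 1.29 (limma adjusted p = 0.0455), with 9 of 21 passed and an adjusted p of up to 0.16. Without 1-week replicate 2, its lowest 1-week array, that change was 2.53 and did not pass. A_51_P314669, the other wide-spread probe, stood 2.15 ± 0.86 higher and missed the threshold (limma adjusted p = 0.0856).

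The remaining 3 calls passed under none of the 5 other scalings. A_55_P2717927 read -3.93, -3.97 and -4.01 at 0 weeks, then -4.85, -4.74 and -4.60 at 1 week, -5.85, -5.47 and -6.30 after 2 weeks and -4.19, -3.78 and -4.09 after 10 weeks. On A_55_P2717927 the 1-week arrays lay below the 0- and 10-week arrays, which overlapped, and the change of 0.71 ± 0.20 log2 had a limma adjusted p of 0.028 but shrank to 0.07 under another setting. A_55_P2055970 read -3.65, -3.95 and -4.20 at 0 weeks, then -4.06, -4.52 and -4.34 at 1 week, -4.91, -6.09 and -5.25 after 2 weeks and -2.61, -3.83 and -3.03 after 10 weeks. The 10-week arrays of A_55_P2055970 lay above its 1-week arrays and overlapped its 0-week arrays, and the change was 1.15 ± 0.35 (limma adjusted p = 0.033). At 2 weeks neither probe was well above background on any array, and the 0-week level of each was at least 2.48-fold (A_55_P2717927) and 2.19-fold (A_55_P2055970) above it. A_55_P2101618 rose by 0.99 ± 0.33 against 1 week (limma adjusted p = 0.0452; 5 of 21).

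Single arrays moved the count of calls at 10 against 1 week. Without 1-week replicate 2 it was 5 higher and 1 lower; the lower call was A_55_P2138627, at -1.72 ± 0.48 log2 (limma adjusted p = 0.0394). Without 10-week replicate 1, 2 or 3 the count of higher calls was 7, 6 and 7. The share of catalogue probes called higher moved as well, from 14.6% to 9.11% without 1-week replicate 2, where 7.99% were lower. Without 10-week replicate 1, 2 or 3 that share was 9.64%, 9.61% and 10.6%.

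**Figure D3:**
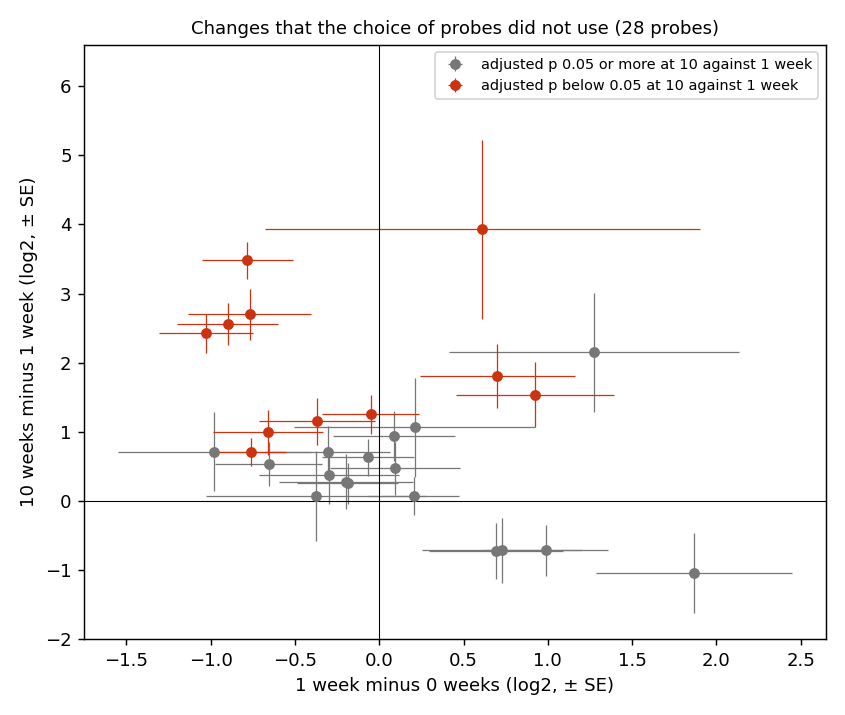
Change from 0 to 1 week (horizontal axis) and from 1 to 10 weeks (vertical axis) of the 28 members, in log2 with SE bars; red marks the 11 members with a limma adjusted p below 0.05 at 10 against 1 week. The axes share the 1-week arrays, so a slope between them is not read. At lower right are the 4 members with a lower mean at 10 weeks than at 1 week.

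In 4 members the mean was lower at 10 weeks than at 1 week, and in 24 it was higher. A_55_P2138627 read -0.23, 0.02 and -0.08 at 0 weeks, then 3.55, 0.40 and 1.37 at 1 week, -1.17, -1.26 and -0.98 after 2 weeks and 0.47, 0.90 and 0.83 after 10 weeks. Its 1-week arrays were the only ones of the members to lie wholly above their 0-week arrays, with replicate 1 far above replicates 2 and 3. A_55_P2025586 read -0.07, 1.17 and 0.17 at 0 weeks, then 0.72, 1.75 and 0.97 at 1 week, -0.79, -1.22 and -0.81 after 2 weeks and 1.55, 0.11 and -0.35 after 10 weeks. A_51_P390937 read 1.57, 2.85 and 2.72 at 0 weeks, then 3.71, 2.87 and 2.63 at 1 week, 1.01, 1.55 and 1.52 after 2 weeks and 2.98, 2.01 and 2.05 after 10 weeks. A_66_P106497 read 0.35, 1.38 and 0.70 at 0 weeks, then 1.23, 2.37 and 1.80 at 1 week, -0.14, -0.08 and 0.13 after 2 weeks and 1.76, 0.48 and 1.02 after 10 weeks. On these 3 probes the 0-, 1- and 10-week arrays overlapped and 2 weeks was low, at -0.94 ± 0.24, 1.36 ± 0.30 and -0.03 ± 0.14 (mean ± SD, n = 3). Over the 4 probes the change from 0 to 1 week was 0.69 to 1.87 and that from 1 to 2 weeks -2.91 to -1.71. None of the 4 differences at 10 against 1 week passed, with limma adjusted p-values of 0.171 to 0.278. This set was formed after the values were seen.

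A_55_P2025586 had 6 relatives among the catalogue probes, with 40 to 43 matching bases. In 4 of the 6 the lowest group mean was also at 2 weeks. How many catalogue probes have their lowest mean at 2 weeks was not computed, so this count has no background beside it. A_55_P1954361 read -1.97, -1.01 and -0.43 at 0 weeks, then -0.30, -1.52 and -1.86 at 1 week, -3.73, -2.52 and -0.70 after 2 weeks and -0.26, -0.58 and -0.97 after 10 weeks. Like the member, it was lowest in mean at 2 weeks and higher again at 10 weeks, but its 2-week replicate 3 lay among the arrays of the other groups. A_55_P2090012 read -4.19, 1.99 and 1.71 at 0 weeks, then 0.11, -1.08 and 1.06 at 1 week, -2.14, -4.25 and -2.01 after 2 weeks and 0.02, -1.45 and -2.43 after 10 weeks. A_55_P1952212 read 0.44, 0.54 and -0.54 at 0 weeks, then 0.88, 0.24 and 1.44 at 1 week, -1.28, 0.14 and 0.45 after 2 weeks and 0.61, -0.25 and 0.23 after 10 weeks. A_55_P2030299 read 2.86, 3.73 and 3.16 at 0 weeks, then 4.69, 4.22 and 4.23 at 1 week, 2.29, 3.43 and 3.80 after 2 weeks and 3.87, 2.57 and 3.10 after 10 weeks. These 3 were lowest in mean at 2 weeks, with 2-week arrays that overlapped those of 0 weeks. On A_55_P2030299 the means at 0, 2 and 10 weeks were near equal, at 3.25, 3.17 and 3.18. On A_55_P1952212 the means at 0, 2 and 10 weeks were 0.15, -0.23 and 0.19. A_55_P2046653 read 0.17, -0.27 and 1.25 at 0 weeks, then -0.86, -1.23 and -0.13 at 1 week, -2.40, -0.95 and -0.66 after 2 weeks and -0.66, -1.86 and -2.03 after 10 weeks. This probe was lowest in mean at 10 weeks. A_55_P1968963 was well above background on 0 arrays. None of the 6 met the members' conditions. The near match of A_66_P106497, A_52_P400905 (42 of 51 aligned bases), was well above background on 5 arrays and had group means of -6.61, -6.28, -5.26 and -5.06 at 0, 1, 2 and 10 weeks. That of A_51_P390937 was a custom-design probe with 40 of 54 aligned bases. CUST_OEV3_055591 read -4.60, -3.45 and -3.89 at 0 weeks, then -2.09, 0.47 and -3.17 at 1 week, -1.96, -5.09 and -4.77 after 2 weeks and -0.86, -1.19 and -1.25 after 10 weeks. It was higher in mean at 1 and 10 weeks than at 0 and 2 weeks, with overlapping arrays at 1 and 2 weeks.

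**Figure D4:**
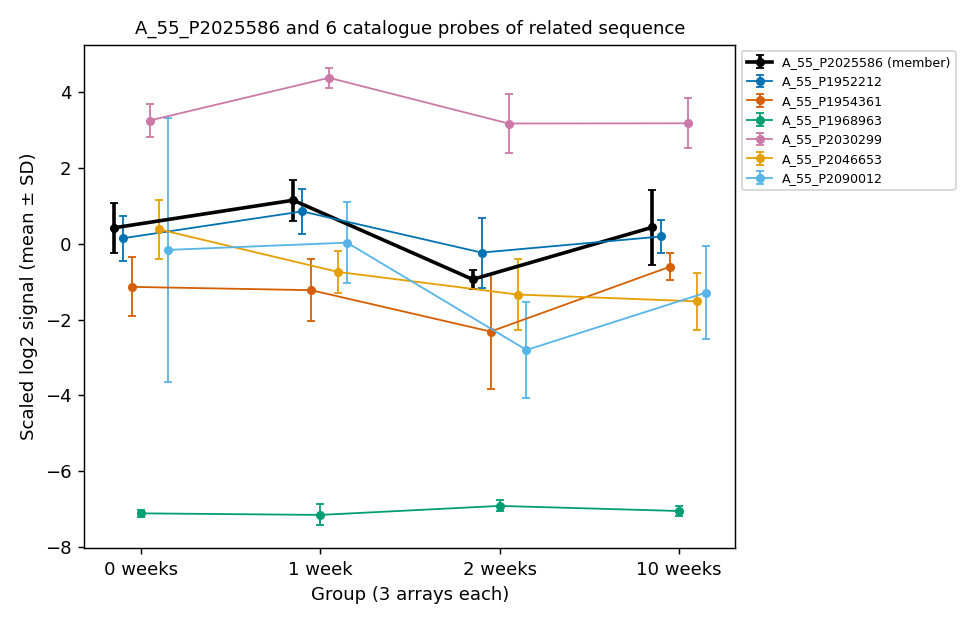
Group means ± SD (n = 3 arrays) of the member A_55_P2025586 and 6 catalogue probes of related sequence, in scaled log2 signal. Levels of different probes are not comparable. The member and 4 of the 6 relatives have their lowest mean at 2 weeks, A_55_P2046653 has its lowest at 10 weeks, and A_55_P1968963, not above background, has means of -7.15 to -6.91. On A_55_P2030299 the 2-week mean, 3.17, is near equal to the 10-week mean, 3.18.

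The relative of A_55_P2723934 by its 24 shared bases, A_55_P2035117, was dim. A_55_P2035117 read -5.90, -6.88 and -5.77 at 0 weeks, then -6.03, -7.34 and -6.82 at 1 week, -7.34, -7.28 and -7.11 after 2 weeks and -3.87, -3.53 and -3.87 after 10 weeks. It was well above background on 3 arrays only, and its 10-week arrays lay above all others, as did those of the member.

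At 10 against 0 weeks, a contrast that the choice bounded from below, the change ran from -0.30 to 4.54 with a median of 0.57, against 0.10 over the catalogue probes tested. It was at least 0.8 in 12 members and within 0.8 of 0 in 16. Every 10-week array lay above every 0-week array in 11 members and below in 0. The share of all catalogue probes that did so was not computed, and the count below was partly set by the choice. These counts therefore describe the members only. The highest differences were 4.54 for A_51_P136781, 3.42 for A_51_P314669 and 2.70 for A_55_P2031021. By the deposited values the lowest were A_55_P2717927 (-0.49), A_52_P21486 (-0.47) and A_55_P2934931 (-0.35). In the scaled signal these 3 stood at -0.05 ± 0.20, -0.30 ± 0.65 and -0.12 ± 0.32 (SE). There A_51_P118545, at -0.26 ± 0.57, was lower than A_55_P2717927 and A_55_P2934931.

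The remaining 9 members were A_55_P2288983, A_55_P2934931, A_55_P2101618, A_52_P300730, A_52_P645805, A_52_P1148292, A_55_P2715760, A_51_P497768 and A_55_P2735410. A_55_P2934931 read -1.91, -2.10 and -2.32 at 0 weeks, then -2.76, -2.83 and -2.72 at 1 week, -4.52, -2.98 and -4.24 after 2 weeks and -2.15, -2.24 and -2.31 after 10 weeks. Its 1-week arrays lay between the 2-week arrays and the rest without overlap. A_55_P2101618 read -2.21, -2.50 and -2.45 at 0 weeks, then -3.06, -3.02 and -3.06 at 1 week, -3.76, -3.50 and -4.66 after 2 weeks and -1.36, -2.28 and -2.52 after 10 weeks. The same order was seen, and the 0- and 10-week arrays overlapped. A_55_P2288983 read -2.65, -2.82 and -2.50 at 0 weeks, then -2.76, -2.48 and -2.44 at 1 week, -4.44, -4.13 and -4.35 after 2 weeks and -2.66, -0.91 and -2.70 after 10 weeks. In this probe 10-week replicate 2 was high and the other 10-week arrays lay among those of 0 and 1 week. A_52_P300730 read -2.68, -2.86 and -2.53 at 0 weeks, then -3.19, -2.42 and -3.37 at 1 week, -4.34, -3.70 and -4.37 after 2 weeks and -3.03, -1.48 and -2.34 after 10 weeks. Here too the 0-, 1- and 10-week groups overlapped.

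A_55_P2715760 read -2.61, -2.86 and -2.96 at 0 weeks, then -2.77, -2.86 and -2.20 at 1 week, -4.11, -3.18 and -4.23 after 2 weeks and -2.49, -2.65 and -2.47 after 10 weeks. A_55_P2735410 read -1.42, -1.83 and -1.76 at 0 weeks, then -1.99, -2.21 and -1.37 at 1 week, -2.95, -2.15 and -3.22 after 2 weeks and -1.51, -1.92 and -1.36 after 10 weeks. The SD of their difference over 12 arrays was 0.19, and 2-week replicate 2 was the highest 2-week array of both. A_51_P497768 read -3.21, -3.18 and -2.91 at 0 weeks, then -3.04, -3.55 and -2.92 at 1 week, -4.20, -3.72 and -4.41 after 2 weeks and -2.02, -2.98 and -2.62 after 10 weeks. A_52_P1148292 read -3.13, -3.57 and -3.29 at 0 weeks, then -3.80, -3.83 and -3.26 at 1 week, -5.94, -4.17 and -4.02 after 2 weeks and -3.42, -3.05 and -3.31 after 10 weeks. A_52_P645805 read -4.21, -3.67 and -3.47 at 0 weeks, then -3.81, -3.80 and -3.49 at 1 week, -5.66, -4.18 and -4.38 after 2 weeks and -3.08, -2.84 and -2.34 after 10 weeks. A_52_P1148292 and A_52_P645805 were each well above background on 2 of 3 arrays at 2 weeks, with replicate 1 the lowest.

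Among the 2-week arrays, replicate 2 was the highest for 18 members, replicate 3 for 8 and replicate 1 for 2. Replicate 1 was the lowest for 14 members, replicate 3 for 10 and replicate 2 for 4. In 6 members none of these arrays was well above background and in 5 only 1 or 2 were, so the order rests in part on dim signals. Whether other probes ranked these arrays alike was not computed. The median SD between arrays of a group over the 28 members was 0.25 in the untreated group, 0.37 after AOM, 0.49 in the 2-week group and 0.59 in the 10-week group.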

How the data were processed

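Total RNA from 12 samples was labelled with Cy3 and hybridised to 1-colour Agilent arrays. Per the file headers, the authors used Agilent Feature Extraction 10.7.1.1 to obtain each spot's intensity, as processed signal (background subtracted, detrended) and as mean and local background intensity. The authors also deposited 1 log2 value table, whose normalization is not given in the sources used here; all its columns had a median of 2.92 and the same quantiles, and its correlation with the matching log2 processed signal was 0.995 or more. The genome build and aligner are not given in the sources used here.

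The members and lists were chosen with earlier results of these data known. Control spots and outlier spots were left out and spots of a probe averaged. Because under 50% of probes were well above background per array, log2 processed signal was scaled to each array's 75th percentile over the 42364 probes detected on all arrays. Probes detected above background in 3 or more arrays (62388) were fitted with limma 3.58.1 (R 4.3.3; lmFit and eBayes, 4 group means, all 12 arrays), with Benjamini-Hochberg adjustment and a threshold of 0.05; the fit was tested on simulated data. Only 1 against 0 weeks and 10 against 1 week were tested. The 3 arrays per group limit the precision.

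Probes were to be named from transcript or protein tables that are not used here, so the gene lists and cell type markers gave no counts. By the rule, named members are the 8 largest measured falls in the deposited values, the 3 highest and 3 lowest changes at 10 against 0 weeks, the 5 largest called changes, the probes next to the threshold and those sharing at least 20 bases; other members are given to account for all 28, and their order and sets were chosen after their values were seen. Relatives share at least 40 matching bases at 1 ungapped offset, more than the 37 found on the reverse strand, or a run of at least 20. Replicate numbers did not pair the arrays: deviations of same-numbered arrays correlated at -0.10 to 0.19. Alternatives were 4 scalings, the deposited log2 table, no filter, 2 groups only, replicate and slide blocks, and each array left out.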

Additional observations from a re-analysis of the deposited data

How the results depend on the processing

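Under the alternatives tried, 0 of 28 members passed as higher at 1 against 0 weeks, and leaving out each array gave 0 to 2 lower calls, above 0 only without 10-week replicate 2. At 10 against 1 week the 11 higher calls became 6 under the percentile over all probes, 6 under cyclic loess and 6 without the filter on dim probes, and 5 to 11 with 1 array left out. The other settings gave 8 to 12, and lower calls were 0 to 1 with 1 array left out. The median change at 2 against 0 weeks, -1.71, was -0.80 under normexp background correction with an offset of 50, and -1.78 to -1.62 with 1 array left out. For A_55_P2723934, A_66_P119869, A_51_P314669, A_52_P669922 and A_55_P2717927 that change was -1.151, -1.001, -1.538, -1.09 and -0.385 under normexp. These changes were smaller than the bounds of the same probes, so the bounds hold for the processed signal only. Of the 28 members, 10 kept the conditions under normexp and 23 to 28 under the other scalings; 8 kept them under all 5 scalings of the scanner signal. The cause was not tested. With the replicate block the calls at 10 against 1 week were 11 higher and 0 lower, and at 1 against 0 weeks 0 and 0; over catalogue probes the block moved the calls at 1 week from 286 to 163 higher and from 82 to 42 lower. The numbers are not known to pair the arrays. Slide as a random block (correlation -0.09) gave 12 higher calls. No slide held arrays of more than 1 group, so this block cannot separate slide from group for this or any other change. At 2 weeks the depth limit was background: 6 members had only a bound there.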
